A study of Mus musculus with 24 samples.

Results

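Choroid plexus from J20 mice was compared with choroid plexus from wild-type (WT) mice at 3 months of age, the youngest age of the series. The comparison rests on 7 of the 24 arrays, 1 Illumina array per animal: 4 J20 animals (numbers 2, 9, 16 and 23, the numbers that end the sample titles, which write AD for this genotype) and 3 WT animals (numbers 1, 15 and 22). The other 17 arrays, from mice of 5-6 and 11-12 months, entered the fit for its estimate of the spread and are used to set the 3-month difference beside that at later ages. J20 mice carry a human amyloid precursor protein (APP) transgene with familial Alzheimer mutations, driven by a platelet-derived growth factor B-chain promoter that is active mainly in neurons, so the transgene is not targeted to the choroid plexus itself. The labels give neither the sex of the animals nor the time of dissection, and they name no agent given to either group.

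The choroid plexus is a fold of tissue in the brain ventricles in which a tight epithelium surrounds a core of fenestrated vessels and stroma. The epithelium secretes cerebrospinal fluid, exports carrier proteins such as transthyretin, and takes peptides and organic anions out of the fluid. It also answers type I interferon (with target genes such as Isg15) and type II interferon (with target genes that serve antigen presentation), and it forms a gate for immune cells. The series was made to ask how these interferon responses differ between J20 and WT mice at different ages.

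All values are log2 intensities after background correction and quantile normalization, so a difference of 1 is a doubling of signal, and levels of different probes are not comparable. A probe counted as detected on an array when its deposited detection p-value was under 0.01, and the 11464 probes detected on at least 3 of the 24 arrays were tested. Where no array of a group detected a probe, its measured difference rests on values not well above background. They include 10825 probes with a gene symbol, for 8232 genes. The labelled tissue was evident in the epithelial genes, of which 27 were tested: transthyretin (Ttr) lay at 14.97 ± 0.09 in J20 animals and 15.01 ± 0.09 in WT animals (SD, n = 4 and n = 3), near the top of the scale. The 7 arrays detected 36.45 to 41.56 percent of the 25697 probes, at a mean intensity of 516.956 to 721.057.

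The 7 arrays lie on 3 BeadChips, and 1 array stood apart. BeadChip 1 holds J20 animals 2 and 9 and WT animal 1, BeadChip 2 holds J20 animal 16 and WT animal 15, and BeadChip 3 holds J20 animal 23 and WT animal 22. WT animal 15 correlated with the other 6 animals at a mean r of 0.933 over probes, against means of 0.970 and above for each of the others, and it had the lowest mean intensity. The closest pairs of all 21 joined a J20 and a WT animal of the same BeadChip, animals 23 and 22 (r = 0.993) and animals 2 and 1 (r = 0.992). The median absolute difference per probe was 0.265 between J20 animals in the median pair and 0.297 between a J20 and a WT animal, or 0.252 without WT animal 15. It was 0.536 for pairs that include WT animal 15. Over all pairs it was 0.255 within a BeadChip and 0.297 across BeadChips. Pairs of a J20 and a WT animal share a BeadChip more often than J20 pairs do, so these medians do not compare genotypes alone. Of the 112 named probes, 59 changed sign or moved by over 1.5 times without WT animal 15, against 34 without WT animal 1, 30 without WT animal 22 and 12 to 20 without a J20 animal. Values without WT animal 15 are therefore given for the named probes and list medians that moved in this way.

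No probe differed between J20 and WT animals at 3 months at an adjusted p under 0.05 (limma with Benjamini-Hochberg adjustment, 0 of 11464 probes, smallest adjusted p = 0.999). At an unadjusted p under 0.05 there were 103 probes, 0.898 percent of those tested, 51 higher in J20 (0.445 percent) and 52 lower (0.454 percent). That share is below the rate of 0.05 at which the threshold would pass independent unchanged probes, and the reason was not tested. The differences of all probes were centred on 0.00 with quartiles of -0.11 and 0.14, and they ran from -1.43 to 1.46. Only 4 probes passed an absolute difference of 1, 2 in each direction. In 140 probes (1.22 percent) the groups did not overlap, with all J20 animals above all WT animals in 60 (0.523 percent) and below them in 80 (0.698 percent).

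The intervals show what size of difference the data leave room for, taking the standard errors of limma as they are. The median standard error was 0.24, which gives a median half-width of 0.49 for the 95% interval. The interval lay within -1 to 1 for 9647 probes (84.2 percent), namely for 90.4 percent of the brighter and 77.9 percent of the dimmer probes, and within -2 to 2 for 99.1 percent. Of the 103 probes at an unadjusted p under 0.05, 90 had the same sign within each of the 3 BeadChips, against 17 percent of all probes. The same values chose these probes, so nothing is read from that share.

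**Figure D1:**
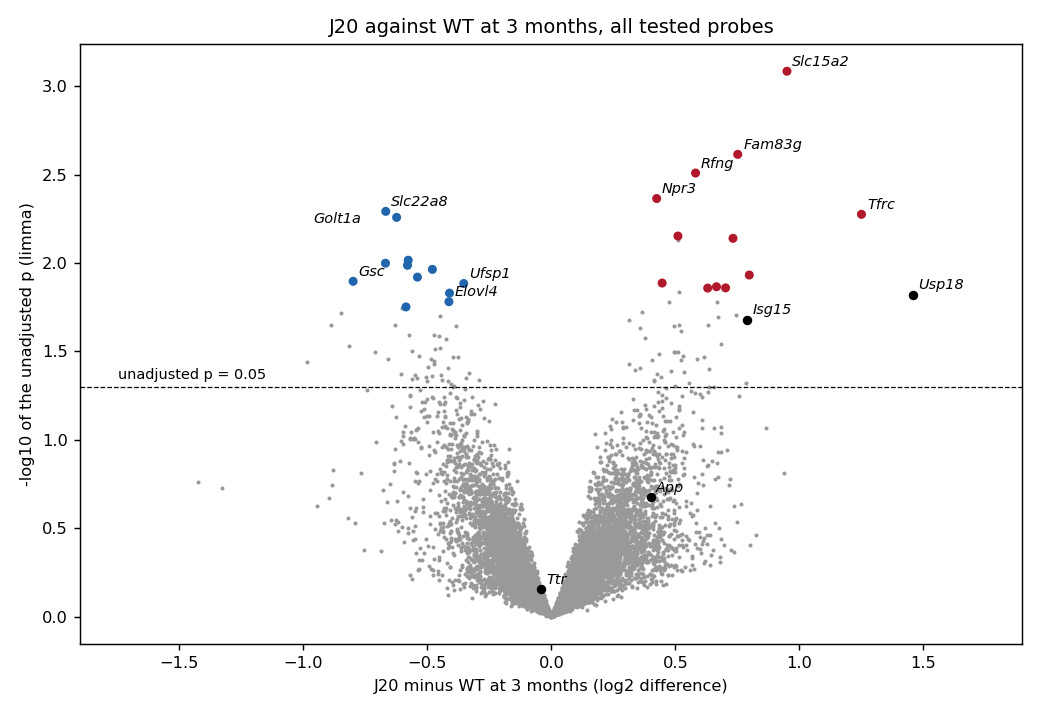
Each point is 1 of the 11464 tested probes, with its J20 minus WT difference at 3 months (log2) on the x axis and -log10 of the unadjusted limma p on the y axis; the 12 probes with the smallest p per direction are red (higher in J20) and blue (lower), and 4 genes discussed in the text are black. Slc15a2 is the highest point, Tfrc and a probe of Usp18 lie farthest right, and no point passes after adjustment.

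The genes described first are the 12 per direction with the smallest unadjusted p. They were ranked on this difference, so their values are a description of the front of the list and not calls. On 8 of the 24 probes all 7 arrays detected the gene. In 14 the groups did not overlap, against 1.22 percent of all probes, but the ranking on the same values favours such probes. On 8 no array of 1 group was above background, so that at most a bound on the fold can be given.

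Slc15a2, which encodes the proton-coupled peptide transporter that the epithelium uses to take small peptides out of cerebrospinal fluid, led the list. Its log2 intensity was 6.08, 6.03, 6.04 and 5.75 in J20 animals 2, 9, 16 and 23, against 4.65, 4.52 and 5.90 in WT animals 1, 15 and 22. The J20 animals lay close together, and 2 WT animals were low while WT animal 22 lay among the J20 animals, so the groups overlapped. The difference was 0.95 (standard error 0.24, a 1.93-fold higher signal), with unadjusted p = 0.000823 and adjusted p = 0.999. All 4 J20 arrays and 1 of 3 WT arrays detected it. Within BeadChips the difference was 1.40, 1.52 and -0.15, and without WT animal 22 it was 1.39 with an adjusted p of 0.00665 in limma, the single adjusted call made under any setting at this age.

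Slc22a8, which encodes organic anion transporter 3, another carrier of this epithelium that clears organic anions from the fluid, led the other direction. It stood at 5.81, 5.86, 5.95 and 5.77 in J20 animals 2, 9, 16 and 23, and at 6.26, 6.75 and 6.54 in WT animals 1, 15 and 22. Every J20 animal lay below every WT animal, and the difference had the same sign in each BeadChip (-0.42, -0.80 and -0.77). The difference was -0.67 (standard error 0.21, a 1.59-fold lower signal, adjusted p = 0.999 in limma), and all 7 arrays detected the gene.

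Tfrc, which encodes the transferrin receptor that brings iron into cells, had the largest difference of the leading probes. Its values were 8.17, 8.09, 8.60 and 7.76 in J20 animals 2, 9, 16 and 23, against 7.43, 6.25 and 7.03 in WT animals 1, 15 and 22. All J20 animals lay above all WT animals, and WT animal 15 was the lowest. The difference was 1.25 (standard error 0.40, 2.38-fold, adjusted p = 0.999 in limma), and within BeadChips it was 0.70, 2.34 and 0.73. With single animals left out it ran from 0.93, without WT animal 15, to 1.51, without WT animal 1. The second probe of Tfrc showed 0.79 (standard error 0.37, unadjusted p = 0.048).

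Npr3, which encodes the clearance receptor for natriuretic peptides, is a bright gene whose values were tight. It stood at 10.93, 11.29, 11.21 and 10.90 in J20 animals 2, 9, 16 and 23, and at 10.59, 10.79 and 10.59 in WT animals 1, 15 and 22. The groups did not overlap, and the differences within the BeadChips were alike at 0.52, 0.42 and 0.31. Over all animals the difference was 0.42 (standard error 0.13, 1.34-fold).

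Among the remaining genes that were higher in J20, enzymes and trafficking proteins were mixed. Rfng, a fringe glycosyltransferase that modifies Notch receptors, differed by 0.58 (standard error 0.17), with 6.56, 7.04, 7.12 and 6.55 in the J20 animals 2, 9, 16 and 23 and 6.07, 6.13 and 6.50 in WT animals 1, 15 and 22. Arsb, the lysosomal arylsulfatase B, differed by 0.51 (standard error 0.17) with no overlap, and its second probe by 0.34 (standard error 0.43). Rapgef1, an exchange factor for the small GTPase Rap1, differed by 0.45 (standard error 0.16), and Smarcc1, a core subunit of the BAF chromatin remodelling complexes, by 0.63 (standard error 0.24). Rapgef1 was at 0.27 without WT animal 15.
Vac14, the scaffold of the complex that makes the lipid PI(3,5)P2, and Rnf126, a ubiquitin ligase, showed differences of 0.67 and 0.70 in which WT animal 15 was lowest. Rnf126 was at 5.38 in WT animal 15 and between 6.75 and 7.20 in the other 6 animals. Without WT animal 15 the difference was 0.21 for Rnf126 and 0.29 for Vac14, and without WT animal 22 it was 1.01 and 1.03.

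Fam83g, which encodes a protein that binds casein kinase 1, was seen on all 4 J20 arrays and on no WT array. Its values were 5.97, 6.00, 5.73 and 5.39 in J20 animals 2, 9, 16 and 23, and 5.08, 5.07 and 4.91 in WT animals 1, 15 and 22, without overlap. Since it was not well above background in WT, the signal was at least 1.09-fold higher in J20 (each WT array's value first raised to its lowest detected signal), while the measured difference was 0.75 (standard error 0.22). Sardh, the mitochondrial sarcosine dehydrogenase, was detected on 2 J20 arrays and no WT array and gave no bound above 1. Atp2b2, a plasma membrane calcium pump, differed by 0.80 on 1 probe and by -0.15 on its other probe, so its 2 probes disagreed in direction.

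The genes lower in J20 were mostly dim. Elovl4, an elongase that makes very long chain fatty acids, and Ufsp1, a peptidase of the UFM1 conjugation pathway, are those besides Slc22a8 that all 7 arrays detected. Elovl4 stood at 10.25, 9.83, 9.96 and 10.38 in J20 animals 2, 9, 16 and 23, and at 10.66, 10.46 and 10.43 in WT animals 1, 15 and 22, a difference of -0.41 (standard error 0.16). Ufsp1 lay at 7.24 ± 0.04 in J20 and 7.59 ± 0.16 in WT (SD, n = 4 and n = 3), a difference of -0.35 (standard error 0.13). Both genes were lower in every J20 animal than in any WT animal.

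Golt1a, a Golgi membrane protein, was detected on no J20 array and on all 3 WT arrays, which gives a signal at least 1.38-fold lower in J20. Its values were 5.15, 5.45, 5.46 and 5.23 in J20 animals 2, 9, 16 and 23, against 6.10, 6.06 and 5.68 in WT animals 1, 15 and 22. For the other genes undetected in all J20 animals the same calculation gave 1.03 to 1.16. These were the lysosomal fucosidase Fuca1, the immune regulator Tnfaip8l2, the cysteine desulfurase Nfs1, the mast cell receptor Milr1 and Rpsa. Rpsa is a ribosomal protein with many near-identical pseudogene copies that the probe may not tell apart. Fuca1 and Nfs1 were detected on 2 of 3 WT arrays, and Tnfaip8l2, Milr1 and Rpsa on 1. Their WT means thus include values not well above background, so 1.03 to 1.16 are not firm bounds. Nfs1 was at -0.48 on this probe and at 0.44 and 0.16 on its other probes, so its probes disagreed in direction. With WT animal 15 left out, Fuca1 was at -0.27, against -0.58 with it, and Nfs1 at -0.32. Gsc, a homeobox transcription factor, differed by -0.80 (standard error 0.29), but WT animal 15 at 7.26 stood above the 5.93 and 5.69 of WT animals 1 and 22, and the difference was -0.32 without WT animal 15. Spint1, a membrane inhibitor of serine proteases in epithelia, and B4galt2, a galactosyltransferase, differed by -0.54 and -0.58 with overlapping groups.

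**Figure D2:**
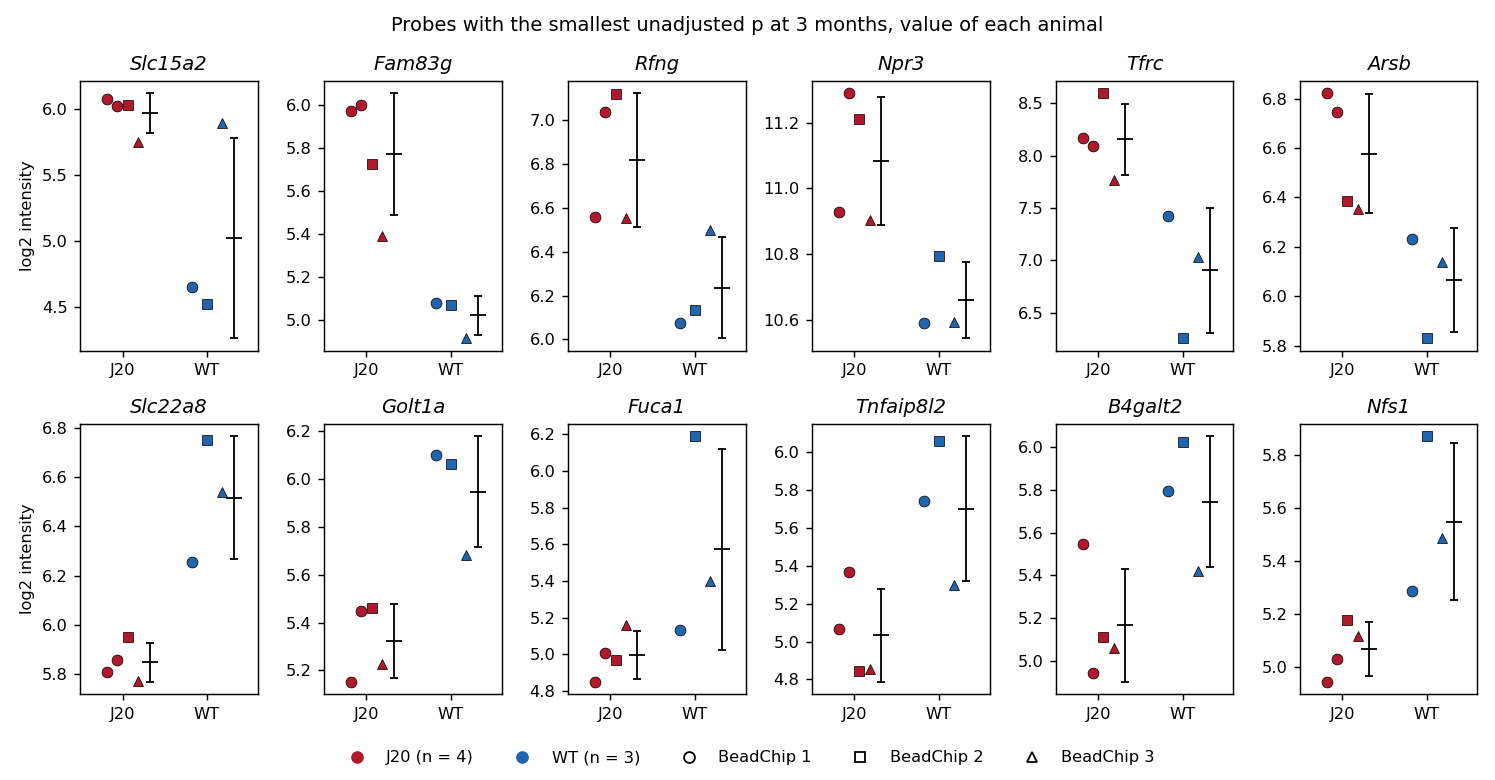
Log2 intensity of each animal (y axis) for the 6 probes with the smallest unadjusted p in each direction, J20 (red) left of WT (blue), marker shape giving the BeadChip and bars the mean ± SD (n = 4 and n = 3). Fam83g, Tfrc and Slc22a8 show no overlap, while WT animal 22 of Slc15a2 at 5.90 lies among the J20 animals.

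Genes of the type I interferon response were mostly above 0 in J20 animals. Of the 40 genes of the list 37 have a probe and 19 were tested on their brightest probe. The difference was above 0 in 16 and below 0 in 3, with a median of 0.23, against 51.0 percent above 0 and a median of 0.00 over all probes. At an unadjusted p under 0.05 by limma there were 2 members higher (background 0.445 percent) and none lower (background 0.454 percent). After adjustment 0 passed, and in none did the groups stay apart (background 1.22 percent). The list was drawn up with the aim and earlier results of the series known, so this count is not independent evidence of a direction.

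The regulatory sequence that these genes are known for is the interferon-stimulated response element, which is bound by Irf9 and by other Irf proteins. The core GAAANNGAAA was searched on both strands, overlapping matches included, in the 250 bases upstream of the start sites of RefSeq genes. Of 27025 promoters 936 held it (3.46 percent), and of the 15 tested members whose promoter was given, 5 did (33.3 percent): Isg15, Ifit3, Bst2, Rsad2 and Stat2. The promoters of Isg15, with 3 matches, of Ifit3, with 2, and of Rsad2, with 1, are shown because their genes lay above the median of the list and were highest in the same J20 animal, with the matches in capitals, 5′ to 3′ on the strand of the gene (RefSeq, GRCm38.p6). They lie at chr4:156200819-156201068 (minus strand), chr19:34583279-34583528 (plus strand) and chr12:26456453-26456702 (minus strand).
Isg15: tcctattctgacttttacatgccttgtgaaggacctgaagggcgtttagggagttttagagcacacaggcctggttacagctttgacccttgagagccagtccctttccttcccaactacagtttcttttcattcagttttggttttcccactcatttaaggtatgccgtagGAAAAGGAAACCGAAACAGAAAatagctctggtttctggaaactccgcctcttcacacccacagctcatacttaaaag
Ifit3: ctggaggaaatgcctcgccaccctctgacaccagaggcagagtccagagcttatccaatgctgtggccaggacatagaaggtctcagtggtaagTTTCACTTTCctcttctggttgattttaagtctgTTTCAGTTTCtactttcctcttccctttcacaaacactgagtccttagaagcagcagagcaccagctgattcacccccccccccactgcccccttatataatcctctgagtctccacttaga
Rsad2: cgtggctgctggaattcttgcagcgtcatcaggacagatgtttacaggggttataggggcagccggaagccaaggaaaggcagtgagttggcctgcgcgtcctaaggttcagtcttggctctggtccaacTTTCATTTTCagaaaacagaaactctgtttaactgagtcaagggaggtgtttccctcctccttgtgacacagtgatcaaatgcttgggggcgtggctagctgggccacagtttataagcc
Counted from the start site, the 3 matches of Isg15 overlap and begin at -78, -72 and -66, those of Ifit3 begin at -156 and -122, and that of Rsad2 begins at -120. A match is a feature of these letters and does not by itself mark a bound site.

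Usp18, the protease that removes Isg15 from proteins and damps signalling by the type I receptor, had the largest difference of all tested probes. This probe stood at 6.06, 6.67, 6.13 and 7.86 in J20 animals 2, 9, 16 and 23, against 5.01, 4.59 and 6.06 in WT animals 1, 15 and 22. The groups touched without crossing, J20 animal 23 was highest, and only 1 WT array detected the gene against 4 of 4 J20 arrays. The difference was 1.46 (standard error 0.55, 95% interval 0.31 to 2.60, unadjusted p = 0.0152). Its sign was the same in each BeadChip (1.35, 1.53 and 1.81). The brighter second probe of Usp18 stood at 7.35, 8.10, 7.47 and 9.01 in J20 animals 2, 9, 16 and 23, and at 6.89, 7.46 and 7.45 in WT animals 1, 15 and 22, a difference of 0.72 (standard error 0.52) with overlap.

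Isg15, the ubiquitin-like modifier itself, was highest in the same animal. Its values were 5.68, 6.28, 6.20 and 7.26 in J20 animals 2, 9, 16 and 23, and 5.94, 4.92 and 5.83 in WT animals 1, 15 and 22. J20 animal 23 was again highest, and J20 animal 2 lay below WT animals 1 and 22. The difference was 0.79 (standard error 0.32, unadjusted p = 0.0209), within BeadChips it was 0.04, 1.28 and 1.42, and without WT animal 15 it was 0.47.

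Irf7, the transcription factor that amplifies type I interferon production, separated the J20 animals among themselves. It stood at 4.70, 4.71, 5.97 and 5.92 in J20 animals 2, 9, 16 and 23, and at 4.54, 4.73 and 4.80 in WT animals 1, 15 and 22. Only J20 animals 16 and 23 had detectable Irf7, and the other 2 J20 animals lay at the level of WT, where no array detected it. The measured difference was 0.63 (standard error 0.29, unadjusted p = 0.0396), with no bound above 1 on the fold, so Irf7 counts among the members higher in J20 only by values not well above background in WT. Irf9, the DNA-binding subunit of the type I signalling complex, was detected on all 7 arrays and differed by 0.40 (standard error 0.24), with its second probe at 0.12, and by 0.18 without WT animal 15.

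The rest of the list had intervals that held 0. Ifit3, an interferon-induced RNA-binding protein, was 9.25 in J20 animal 23 and between 6.99 and 8.47 in the other 6 animals, and Rsad2, the antiviral enzyme viperin, was 8.02 in that animal and between 6.18 and 7.12 in the others. Rsad2 differed by 0.42 (standard error 0.45) and Ifit3 by 0.31 (standard error 0.50). The mean of the 19 members per animal, each centred over the 7 animals, was -0.25, 0.02, 0.16 and 0.51 in J20 animals 2, 9, 16 and 23, and -0.32, -0.04 and -0.08 in WT animals 1, 15 and 22. J20 animal 23 was highest and J20 animal 2 lay within the range of WT. Without J20 animal 23 the median of the list was 0.095, and without any other single animal it was between 0.18 and 0.34.

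**Figure D3:**
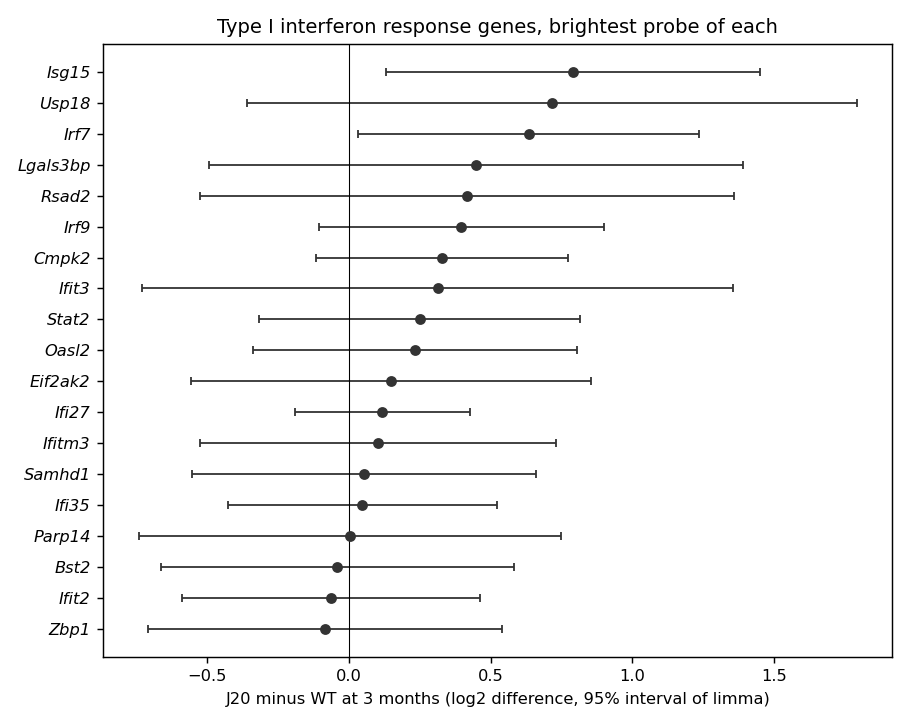
J20 minus WT difference at 3 months (log2, x axis) with the 95% interval of limma for the 19 tested genes of the type I interferon list, each on its brightest probe. Points of 16 genes lie right of 0, and the intervals of Isg15 and Irf7 alone leave out 0 before adjustment.

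Genes of the type II interferon response and of MHC class II presentation varied widely between animals of the same genotype. Of 16 tested members 12 were above 0 and 4 below, the median was 0.17, and none had an unadjusted p under 0.05 (0.898 percent of all probes did, by limma). Cd74, the invariant chain that guides class II molecules, was at 9.76, 10.25, 11.71 and 10.40 in J20 animals 2, 9, 16 and 23, against 7.96, 10.78 and 11.22 in WT animals 1, 15 and 22. WT animal 1 was lowest and J20 animal 16 highest, and the difference of 0.54 (standard error 0.57, second probe 0.42) became -0.47 without WT animal 1. H2-Aa, an alpha chain of class II, differed by 0.06 (standard error 0.52) and by -0.66 without WT animal 1 and -0.38 without J20 animal 16. The median of the list was -0.20 without WT animal 1, -0.02 without J20 animal 16 and 0.43 without WT animal 15.
The members with the smallest p were interferon-inducible GTPases. Irgm1 differed by 0.45 (standard error 0.25) on 1 probe and by 0.03 on its other, Tgtp1, which has a near-identical copy, by 0.35 (standard error 0.25) and Irgm2 by 0.30 (standard error 0.24). Tgtp1 was detected on 2 J20 arrays and no WT array, with no bound above 1 on the fold. Cxcl9, a chemokine for T cells, spread from 5.16 to 7.82 in J20 animals and from 4.54 to 6.71 in WT animals, a difference of 0.67 with a standard error of 0.66. In the fit that leaves out WT animal 15, Cxcl9 was at 1.19, Cd74 at 0.94, H2-Aa at 0.50 and Irgm2 at 0.16.

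Macrophage genes moved with these values from animal to animal. Of 16 tested macrophage genes 8 were above and 8 below 0, with a median of 0.05, and their mean per animal was lowest in WT animal 1 (-0.59) and highest in J20 animal 16 (0.47), as for the class II list (-0.93 and 0.73). The part of macrophage content in the class II values was not tested. In whole tissue, fewer cells of a type and less RNA per cell cannot be told apart. F13a1, a coagulation factor subunit made by resident macrophages, was detected on no J20 array and on 2 of 3 WT arrays. It differed by -0.61 (standard error 0.28, unadjusted p = 0.0424), with no bound above 1 on the fold, and by -0.28 without WT animal 15. Tyrobp and Fcgr3, of the Fc receptor signalling machinery, differed by 0.37 and 0.21, and Stab1, a scavenger receptor, by -0.41, all with intervals that held 0. Without WT animal 15 Tyrobp was at 0.60, Stab1 at 0.061 and the median of the list at 0.22.

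Class I presentation and the interferon receptors showed small differences. Of 12 tested class I genes 6 were above and 6 below 0 (median 0.06). B2m, the light chain of class I, differed by 0.31 (standard error 0.32, second probe 0.26) and by -0.10 without WT animal 1. Calr, a chaperone that also folds class I, differed by 0.47 (standard error 0.31), Pdia3, another of these chaperones, by 0.14 (standard error 0.15) and Psmb9, a subunit of the immunoproteasome, by -0.21 (standard error 0.23). Among 14 receptor and JAK-STAT genes 5 were above and 9 below 0 (median -0.06). Socs2, a suppressor of cytokine signalling, was at 8.49, 8.38, 8.60 and 8.57 in J20 animals 2, 9, 16 and 23, below the 8.66, 8.98 and 9.19 of WT animals 1, 15 and 22, a difference of -0.43 (standard error 0.23). Socs3, which inhibits signalling of the interleukin-6 family, differed by -0.44 (standard error 0.28) with overlap, Ifngr2, the second chain of the type II interferon receptor, by 0.32 (standard error 0.23) on 1 probe and -0.16 on the other, and the phosphatase Ptpn11 by 0.32 (standard error 0.28). The first Ifngr2 probe was detected on 1 J20 array and no WT array, with no bound above 1 on the fold. Ptpn11 was at -0.07 without WT animal 15, and its other probes differed by 0.11 and 0.20. With WT animal 15 left out, Calr was at 0.16, Pdia3 at 0.039 and Psmb9 at 0.021, and the medians of the class I and receptor lists were 0.013 and 0.031.

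Genes of the secretory epithelium differed little between J20 and WT animals. Of 27 tested epithelial genes 20 were above and 7 below 0, with a median of 0.07 and a range of -0.29 to 0.26. None had an unadjusted p under 0.05 by limma, which is near the 0.898 percent of all probes that did. Ttr differed by -0.04 (95% interval -0.26 to 0.18). The 4 members with the smallest p were Atp1b1, a subunit of the sodium pump (0.20, standard error 0.13), the homeobox factors Msx1 (0.18, standard error 0.12) and Otx2 (0.26, standard error 0.18), of which Otx2 specifies the choroid plexus, and the insulin-like growth factor binding protein Igfbp2 (0.15, standard error 0.13, second probe 0.43). For the probe first given of each gene the upper end of the interval was at most 0.63, below a doubling, while the interval of the second Igfbp2 probe reached 1.36. Otx2 was at 0.054 without WT animal 15.

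Of 12 tested junction genes 6 were above and 6 below 0 (median -0.02). Tjp3, a scaffold of tight junctions, stood at 8.72, 8.68, 8.65 and 8.71 in J20 animals 2, 9, 16 and 23, and at 8.14, 7.83 and 8.77 in WT animals 1, 15 and 22. The J20 animals were almost equal, and the difference of 0.44 (standard error 0.21, unadjusted p = 0.044) rested on WT animals 1 and 15, while WT animal 22 was higher than every J20 animal. Of all probes 0.445 percent were higher at an unadjusted p under 0.05. The second probe of Tjp3 differed by 0.36 (standard error 0.19). Cldn2, the claudin that forms paracellular cation and water pores in this epithelium, differed by 0.23 (standard error 0.28) and by -0.11 without WT animal 15. The catenins Ctnnb1 and Ctnna1 differed by 0.24 (second probe 0.087) and 0.10, with intervals that held 0. In the fit that leaves out WT animal 15, Tjp3 was at 0.23, Ctnnb1 at -0.023, Ctnna1 at 0.16 and the median of the list at 0.10.

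App is the gene that the J20 transgene duplicates in human form. The probe named App on this mouse array stood at 12.48, 12.44, 12.42 and 12.83 in J20 animals 2, 9, 16 and 23, and at 12.08, 11.72 and 12.63 in WT animals 1, 15 and 22. J20 animal 23 was highest, and WT animal 22 lay above the other 3 J20 animals. The difference was 0.40 (standard error 0.31, 95% interval -0.25 to 1.05), and 0.19 without WT animal 15. Whether the probe also reads the human transcript is not stated in the sources used here, so it checks neither the label nor the transgene. Of 20 tested genes of amyloid precursor processing and amyloid beta clearance 11 were above and 9 below 0 (median 0.05). Ncstn, a subunit of gamma-secretase, was lower in every J20 animal than in any WT animal, at 12.32 ± 0.14 against 12.54 ± 0.06 (SD, n = 4 and n = 3), a difference of -0.22 (standard error 0.13), and its other probes differed by -0.29 and -0.09. Sorl1, a sorting receptor for APP, differed by 0.31 (standard error 0.22), and Cst3, the secreted protease inhibitor cystatin C, by 0.25 (standard error 0.19).

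Iron handling held Tfrc, described above. Of 15 tested acute phase, metal and iron genes 8 were above and 7 below 0, with a median of 0.03. Trf, the iron carrier transferrin, stood at 12.49, 11.76, 12.46 and 12.89 in J20 animals 2, 9, 16 and 23, and at 11.72, 10.004 and 12.66 in WT animals 1, 15 and 22. WT animal 15 lay more than 1 below every other animal, and the difference of 0.94 (standard error 0.63) was 0.21 without it. Slc40a1, the iron exporter ferroportin, differed by -0.37 (standard error 0.25), and Timp1, an inhibitor of metalloproteinases, by -0.39 on 1 probe and -0.20 on the other. Timp1 was at -0.11 and the median of the list at 0.11 without WT animal 15. Lcn2, the iron-siderophore binding acute phase protein, was detected on no J20 array and on 1 WT array, and differed by -0.26 (standard error 0.45), or 0.18 without WT animal 15.

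Vessel genes were mostly below 0 and varied with BeadChip. Of 15 tested endothelial genes 13 were below 0, against 49.0 percent of all probes, and the median was -0.21. None had an unadjusted p under 0.05 by limma, which is near the 0.898 percent of all probes that did. The mean of the endothelial genes per animal was -0.67, -0.25, 0.61 and 0.04 in J20 animals 2, 9, 16 and 23. It was -0.72, 0.56 and 0.43 in WT animals 1, 15 and 22. All 3 animals of BeadChip 1 were low and both animals of BeadChip 2 high, in each genotype. Within BeadChips the median of the list was 0.31, -0.08 and -0.37, so its sign differed between them. Leaving out single animals moved it between -0.65, without WT animal 1, and 0.10, without WT animal 15. Cdh5, the cadherin of endothelial junctions, differed by -0.35 (standard error 0.42), Pecam1 by -0.24 with its second probe at 0.32, and Esam and Egfl7 by -0.26 and -0.21 (second probe of Egfl7 -0.062). Without WT animal 15 Cdh5 was at 0.051, Pecam1 at 0.31 and Esam at 0.013.

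Pericyte and smooth muscle genes were spread in a similar way. Of 10 tested members 9 were below 0 (median -0.19), and the mean per animal was highest in WT animal 15, at 0.82. Within BeadChips the median was 0.11, -0.22 and -0.18, and with single animals left out it ran from -0.58, without WT animal 1, to 0.063, without WT animal 15, so its sign turned. Rgs5, a regulator of G protein signalling in pericytes, was at 4.80, 5.22, 5.76 and 6.22 in J20 animals 2, 9, 16 and 23, and at 5.34, 7.36 and 6.44 in WT animals 1, 15 and 22, a difference of -0.88 (standard error 0.59). Des, the filament desmin, differed by -0.63 (standard error 0.41) and by -0.09 without WT animal 15. Kcnj8, a subunit of a potassium channel of pericytes, lay between 5.93 and 6.07 in J20 animals and between 6.09 and 6.93 in WT animals, a difference of -0.42 (standard error 0.27). Notch3, the Notch receptor of mural cells, differed by -0.34 (standard error 0.42). With WT animal 15 left out, Rgs5 was at -0.39, Kcnj8 at -0.16 and Notch3 at 0.015.

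The neuronal and oligodendrocyte lists stand for brain parenchyma, whose presence in the dissected tissue can vary. The mean of each list was highest in J20 animal 16. Of 19 tested neuronal genes 13 were below 0 (median -0.10), and their mean per animal was 0.98 in J20 animal 16, between -0.61 and -0.27 in the other J20 animals and between -0.19 and 0.35 in WT animals. Within BeadChips the median was -0.07, 0.55 and -0.45. With single animals left out it ran from -0.56, without J20 animal 16, to 0.075, without J20 animal 2, and was -0.028 without WT animal 15. The synaptic genes Slc17a6, Syn1 and Syt4 and the neuronal hydrolase Uchl1 differed by -0.63, -0.56, -0.69 and -0.46, with standard errors of 0.47 to 0.85, and the second probe of Syn1 by 0.012. Of 10 tested oligodendrocyte genes 7 were below 0 (median -0.06, or -0.27 without J20 animal 16 and 0.030 without WT animal 15). Mbp, myelin basic protein, stood at 7.88, 7.81, 10.21 and 7.04 in J20 animals 2, 9, 16 and 23, against 9.08, 9.85 and 8.60 in WT animals 1, 15 and 22. J20 animal 16 was above every WT animal and the other 3 J20 animals were below. The difference was -0.95, with a standard error of 0.78 from the spread over all 24 arrays. The other Mbp probes differed by 0.048 and 0.052. Olig1, Mag and Pdgfra differed by -0.65, -0.51 and -0.29 with intervals that held 0, and Pdgfra is also on the fibroblast list. Single members did not all follow the lists: Syt4, Syn1 and Pdgfra were higher in WT animal 15 than in J20 animal 16. In the fit that leaves out WT animal 15, Mbp was at -0.61, Mag at -0.24, Syn1 at -0.22 and Syt4 at -0.22.

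**Figure D4:**
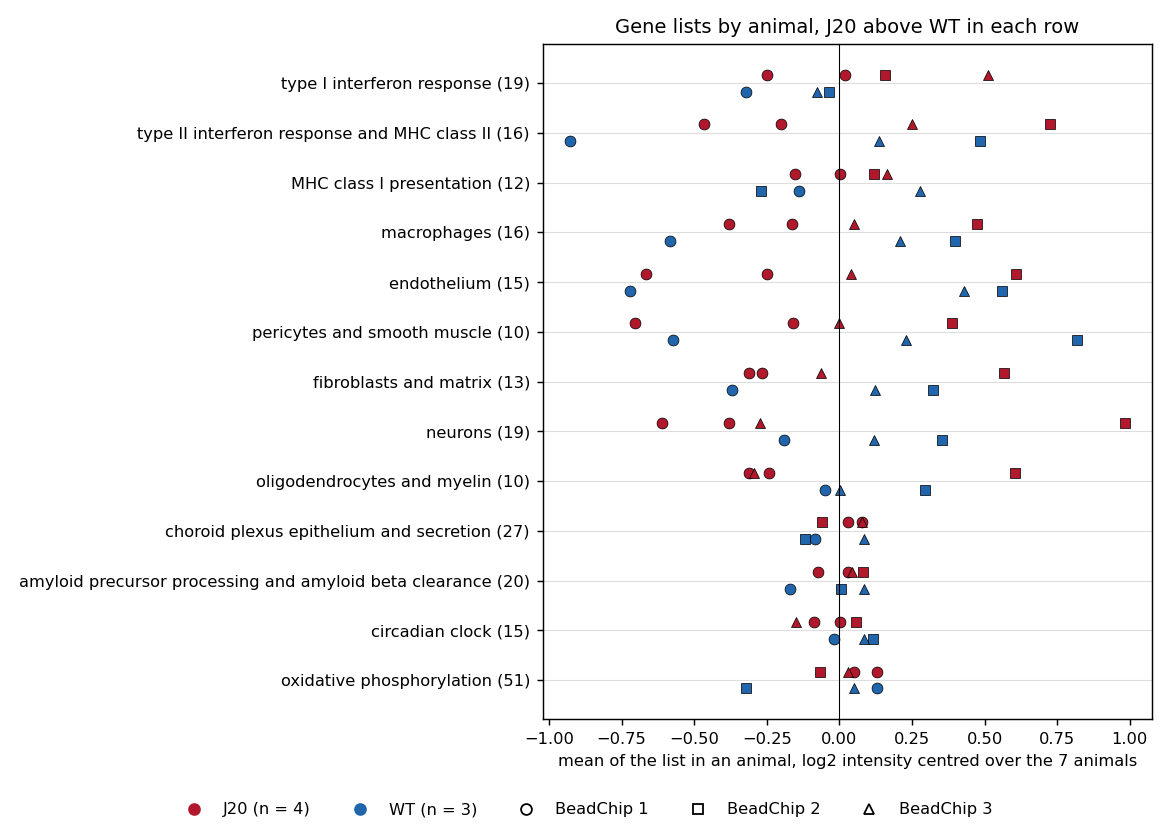
Mean of each gene list in each animal (x axis, log2 intensity centred over the 7 animals), with the number of tested members in brackets, J20 (red) above WT (blue) in each row and marker shape giving the BeadChip. The type II interferon, macrophage, endothelial, pericyte and fibroblast lists spread widely, with BeadChip 1 animals low and BeadChip 2 animals high in both genotypes, while the epithelial list stays between -0.12 and 0.08.

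Some genes of the circadian clock were lower in 3 of 4 J20 animals. Per2, a core repressor of the clock, was at 8.10, 7.98, 9.22 and 7.94 in J20 animals 2, 9, 16 and 23, and at 8.88, 9.32 and 9.18 in WT animals 1, 15 and 22. J20 animal 16 lay within WT and the other J20 animals below it, and the difference was -0.81 (standard error 0.35, unadjusted p = 0.0296, second probe -0.64). Ciart, a repressor that oscillates with the clock, was at 6.05, 5.85, 7.32 and 6.11 in J20 animals 2, 9, 16 and 23, and at 6.43, 7.50 and 7.74 in WT animals 1, 15 and 22. The difference was -0.89 (standard error 0.36, unadjusted p = 0.0225, second probe -0.99). Within BeadChips it was -0.47, -0.18 and -1.64, while the second probe was at -1.22, 0.74 and -1.82, so its sign turned on BeadChip 2. Tef, an output factor of the clock, was below WT in every J20 animal (-0.29, standard error 0.27), and Nr1d1, the repressor Rev-erb alpha, differed by 0.37 (standard error 0.38). Without WT animal 15 Tef was at -0.17, Nr1d1 at 0.60 and the median of the list at -0.027. Over the list 6 of 15 tested members were above and 9 below 0 (median -0.07), and 2 were lower at an unadjusted p under 0.05 by limma (background 0.454 percent). In 1 member every J20 animal lay above every WT animal and in 1 below (backgrounds 0.523 and 0.698 percent). Time of dissection was not given, so its part in these values was not tested.

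Tsc22d3, the glucocorticoid-induced leucine zipper, was likewise highest in J20 animal 16 among J20 animals. It stood at 9.08, 9.14, 9.76 and 9.12 in J20 animals 2, 9, 16 and 23, and at 9.58, 9.82 and 9.77 in WT animals 1, 15 and 22. J20 animal 16 was again at the level of WT, and the difference was -0.45 (standard error 0.18, unadjusted p = 0.0200). Of 14 tested glucocorticoid response genes 4 were above and 10 below 0 (median -0.09, or -0.052 without WT animal 15). Hsd11b1, which regenerates active glucocorticoid, differed by -0.63 (standard error 0.57, other probes -0.29 and -0.060), the clock gene Per1 by -0.27 (standard error 0.28) and the kinase Pdk4 by 0.17 (standard error 0.19).

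Genes of energy metabolism also differed little. Of 51 tested genes of oxidative phosphorylation 36 were above and 15 below 0, and the median was 0.06. None had an unadjusted p under 0.05 by limma, which is near the 0.898 percent of all probes that did. The mean of the list per animal was -0.32 in WT animal 15 and between -0.07 and 0.13 in the other 6, and without WT animal 15 the median was -0.06. Sdhb, the iron-sulfur subunit of complex II, differed by 0.42 (standard error 0.32), Cox6c of complex IV by 0.21 (standard error 0.14), Ndufs8 of complex I by -0.16 (standard error 0.13) and Uqcrc2 of complex III by 0.15 (standard error 0.13). With WT animal 15 left out, Sdhb was at 0.072, Cox6c at 0.32, Ndufs8 at -0.082 and Uqcrc2 at -0.012.

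The remaining lists were small in difference or in number. Medians were 0.17 for 13 cytosolic heat shock genes, 0.09 for 14 unfolded protein response genes, 0.04 for 20 glycolysis and hypoxia genes, 0.03 for 31 cytosolic ribosomal protein genes, 0.05 for 9 cell cycle genes, -0.07 for 11 immediate early genes and -0.03 for 11 cytokine and chemokine genes. Among cell types they were -0.01 for 13 fibroblast and matrix genes, -0.01 for 8 genes of ependyma and cilia, -0.11 for 8 astrocyte genes, -0.41 for 4 genes of neutrophils and mast cells and 0.16 for the 1 tested lymphocyte gene. Blood and neighbouring glands varied between animals of the same group: Hba-a1, a haemoglobin chain, ran from 10.07 to 13.14 in J20 animals and from 10.47 to 12.74 in WT animals, and Gh, pituitary growth hormone, from 5.28 to 9.33 in J20 animals and from 5.85 to 8.33 in WT animals. The medians of the 4 erythroid and 3 pituitary and pineal genes were 0.06 and 0.14. In the fit that leaves out WT animal 15, the medians were 0.055 for the heat shock, -0.041 for the unfolded protein response, -0.067 for the ribosomal, 0.16 for the fibroblast and -0.12 for the neutrophil and mast cell list. The sign turned to -0.43 for pituitary and pineal, -0.082 for erythroid, 0.092 for immediate early and 0.087 for cytokine and chemokine genes. The lymphocyte gene was at 0.28, the cell cycle list at 0.023 and the ependyma and cilia list at -0.021. Of 30 lists, 8 medians lay outside the quartiles of all probes. Among them are the lymphocyte, pituitary and pineal, and neutrophil and mast cell lists, with 1, 3 and 4 tested genes. The type II interferon, endothelial, pericyte, and pituitary and pineal medians, also among them, turned sign in some fits that left out 1 animal.

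Among the 5 tested sex-linked genes the Y-linked Eif2s3y, Uty and Kdm5d were dim in all animals, with differences of -0.31, -0.23 and -0.11, and the X-linked Eif2s3x and Kdm6a differed by 0.30 and -0.24. Eif2s3y was detected on no J20 array and on 1 of 3 WT arrays, Uty on 3 of 4 J20 and 2 of 3 WT arrays, and Kdm5d on 1 array of each group. No interval left out 0. Without WT animal 15 Eif2s3y was at 0.083, Eif2s3x at -0.16, Kdm6a at 0.21, Uty at -0.090 and Kdm5d at -0.010.

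The 3-month difference was then set against that at the later ages, measured in other animals (J20 and WT, n = 4 and n = 4 at 5-6 months and n = 3 and n = 6 at 11-12 months). No probe had a genotype difference that itself differed between ages at an adjusted p under 0.05. At an unadjusted p under 0.05 there were 160 probes (1.40 percent) for 3 against 5-6 months, 0.663 percent above and 0.733 percent below the later difference, with a smallest adjusted p of 0.998, and 393 (3.43 percent) for 3 against 11-12 months, 1.17 percent above and 2.26 percent below, with a smallest adjusted p of 0.789, both by limma. J20 against WT itself gave 0 adjusted calls at both later ages, and at an unadjusted p under 0.05 it gave 1.26 percent at 5-6 months (0.776 percent higher, 0.480 percent lower) and 5.85 percent at 11-12 months (4.06 percent higher, 1.80 percent lower). These comparisons share the 7 arrays of 3 months. Of the 103 probes at an unadjusted p under 0.05 at 3 months, 46 had the same sign at 5-6 months and 46 at 11-12 months (44.7 percent each), against 36.4 and 37 percent of all probes. Over all 11464 probes the r of the 3-month difference with that of 5-6 months was -0.37 and with that of 11-12 months -0.36, where the ages share BeadChips but no array.

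Npr3 had the smallest p for a difference between 3 and 5-6 months. J20 minus WT was 0.42 at 3 months (standard error 0.13), -0.23 at 5-6 months (standard error 0.12) and -0.18 at 11-12 months (standard error 0.12), so the 3-month difference exceeded that of 5-6 months by 0.66 (standard error 0.18, unadjusted p = 0.00157) and that of 11-12 months by 0.61 (standard error 0.18, unadjusted p = 0.00305). The sign was positive at 3 months and negative at both later ages. Afg3l1, a subunit of a mitochondrial protease, showed the same order on 1 probe (0.63, -0.77 and -0.71 at 3, 5-6 and 11-12 months), while its other 3 probes at 3 months lay between -0.10 and -0.02. Atp2b2, Lrfn4, Rapgef1 and Upb1 also exceeded their 5-6 month difference, by 0.68 to 1.20. Milr1, H2-Q1, Fuca1, Moap1, Nfs1 and Wdr45 were below it, by -0.94 to -0.48, where H2-Q1 belongs to a family of near-identical class I genes that a probe may not tell apart. At 3 months no WT array detected Lrfn4, and no J20 array detected Milr1, H2-Q1, Fuca1 or Nfs1 on the probe given.

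Against 11-12 months Ahcy, the hydrolase of S-adenosylhomocysteine, had the smallest p. Ahcy differed by -0.37, 0.15 and 0.80 at 3, 5-6 and 11-12 months (standard errors 0.23, 0.22 and 0.22), so the 3-month difference was lower than that of 11-12 months by -1.17 (standard error 0.32, unadjusted p = 0.00135). Noc3l, Zdhhc16, Ddb1 and Rtl8b were above their 11-12 month difference by 0.85 to 1.21, and Fam221a, Tpt1, Mthfs, Scnm1 and Atf2 were below it by -1.65 to -0.78. No J20 array of 3 months detected Tpt1 or Atf2 on the probe given. The other probes of Upb1, Zdhhc16, Scnm1 and Atf2 differed at 3 months by 0.13 and -0.071, by 0.029, by -0.57 and by 0.12. With WT animal 15 left out, the 3-month differences of Afg3l1, Lrfn4, Upb1, Zdhhc16 and Rtl8b were 0.39, 0.31, 0.077, 0.20 and 0.18, and those of Moap1, Mthfs, Scnm1 and Atf2 were -0.13, -0.19, -0.46 and -0.16. None of these passed after adjustment.

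The leading genes of 3 months are set beside their values in the later animals. They were ranked on the 3-month difference, so the ranking by itself favours smaller values at other ages. How much of the change comes from the ranking was not tested, and no pattern of age is read from it. Slc15a2 was positive at every age, at 0.95, 0.61 and 0.36 in that order (standard errors 0.24, 0.23 and 0.23), with an unadjusted p of 0.0133 at 5-6 months. Slc22a8 stood at -0.67, -0.04 and -0.34, and Tfrc at 1.25, 0.07 and -0.27. Usp18 stood at 1.46, 0.06 and -0.47, Isg15 at 0.79, 0.03 and 0.23, and Irf7 at 0.63, 0.13 and -0.21. The medians of the type I interferon list were 0.23, 0.054 and 0.0094 in the same order of ages, and those of the type II list 0.17, 0.26 and 0.08. Differences between these medians were not tested.

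**Figure D5:**
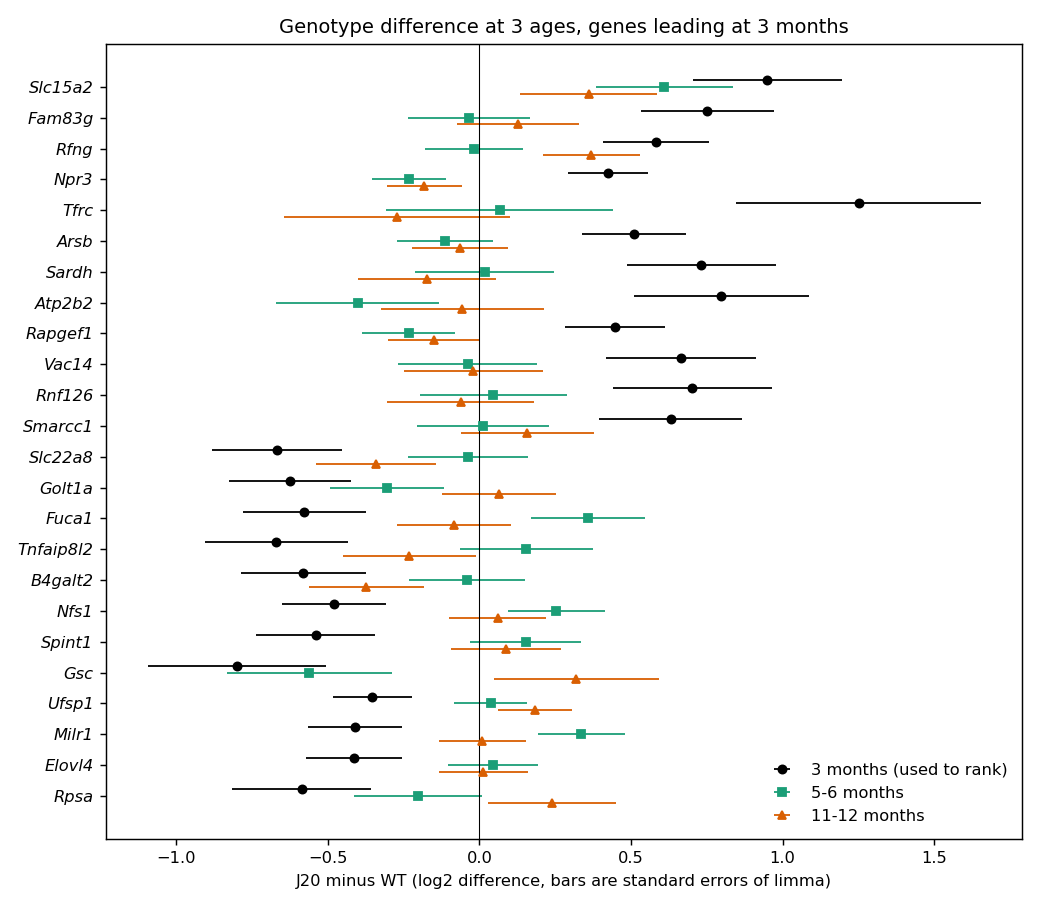
J20 minus WT difference (log2, x axis, bars are standard errors of limma) at 3 months (black), 5-6 months (green) and 11-12 months (orange) for the 24 genes ranked on the 3-month values. Slc15a2 is positive at each age (0.95, 0.61 and 0.36), and the ranking by itself favours smaller differences at the later ages.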

How the data were processed

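Total RNA of choroid plexus was hybridised as biotin-labelled cRNA to Illumina mouse arrays, per the labels' protocols. The authors deposited a non-normalized table with 1 linear intensity and 1 detection p-value per probe and array, per the file headers. They also deposited a matrix of log2 values, which the files show to be the quantile-normalized log2 of the same intensities. Scanner and summary software: not given in the sources used here. Depth has no counterpart in arrays, and the number of animals limits the precision.

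Intensities were background corrected by normexp, using limma's nec, which estimates the background from the detection column, with an offset of 16, then quantile normalized and taken to log2 (limma 3.58.1 in R 4.3.3). Every difference came from a single linear model over the 24 arrays, with 1 mean for each genotype at each age, with Benjamini-Hochberg adjustment over all 11464 probes and a threshold of 0.05. Standard errors and 95% intervals are limma's. No arrays held identical values (0 pairs). The fit was run on simulated data with independent normal noise per probe. Those data hold neither an outlying array nor likeness within BeadChips, so the run cannot show how the fit behaves with them. Nothing in the labels says whether animals shared a litter, and the fit treats the animals as independent. Each probe has 1 spread, pooled over the groups of all 24 arrays and moderated across probes. The standard errors, intervals and p-values therefore do not measure the spread of the 3-month animals alone. For Slc15a2, the SD at 3 months was 0.15 in J20 and 0.76 in WT animals, while the standard error of the difference was 0.24.

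The genes of a list are given on their brightest tested probe and named genes on the probe with the smallest p. The naming rule takes 12 genes per direction by the smallest unadjusted p at 3 months, 6 per direction for each difference between ages, up to 4 per described list, 9 fixed genes and sex-linked genes. Hba-a1, Gh, Ifit3 and Rsad2 were named after their values were seen. The comparison, the 30 lists and the rule were chosen with earlier results of these data known. Symbols came from the platform table and were updated for 23962 probes; 23978 probes had 1 symbol and 1719 none. Alternatives changed background correction, offset, scaling, detection filter, BeadChip block, array weights, the arrays fitted, the probe of a gene and each animal in turn.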

Additional observations from a re-analysis of the deposited data

Results flagged for a closer look

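In 147 probes, lists and array measures the 4 J20 animals were checked for 1 animal far from the others (its gap to the nearest animal over the whole range, against Dixon's 95% critical value). The check picked out 8, where chance flags about 1 in 20 groups. J20 animal 16 was the far one in Olig1 (7.13), Mag (7.63), Per2 (9.22), Tsc22d3 (9.76) and the mean of the oligodendrocyte and myelin list (0.604), each time as the highest. J20 animal 23 was far in App (12.8, highest) and Slc15a2 (5.75, lowest), and J20 animal 2 in Cst3 (13.8, lowest). The 3 WT animals are too few for this check.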

How the results depend on the processing

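The count of adjusted calls was 0 under every setting for both differences between ages, and for J20 against WT at 3 months it was 0 under all but 1 (left-out animals 0 to 1, the call being Slc15a2 without WT animal 22). No paired analysis was possible because the animals' numbers are all different and no number is shared between groups; BeadChip, which holds both genotypes, was used as a block. Probes at an unadjusted p under 0.05 (103 at 3 months) numbered 54 with median scaling, 536 with no detection filter, which tested 25697 probes, 200 with BeadChip as a block, 372 with array weights, 65 in the 7 arrays alone and 93 to 515 with single animals left out, the most without WT animal 22 and 242 without WT animal 1. For 3 against 5-6 months (160) they numbered 81 with median scaling, 646 with no filter, 284 with array weights and 78 to 527 with animals left out. For 3 against 11-12 months (393) they numbered 1039 with no filter, 823 with the block, 957 with array weights and 152 to 1364 with animals left out. The lowest of both came without WT animal 15 and the highest without WT animal 22. Probes whose groups did not overlap (140) numbered 733 with no filter and 277 to 1180 with animals left out, which fewer animals make easier. Median scaling moved the median of all probes to 0.11 and the split of the 54 to 41 higher and 13 lower (75.9 percent higher, against 49.5 percent), and for 3 against 11-12 months it moved the median to 0.33 and the split to 483 and 17 (96.6 against 34.1 percent higher).

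Of 112 named probes 91 kept their sign under every setting, in 1661 values with 33 reversed. H2-Aa was at -0.000209 without background correction. With array weights, which gave WT animal 15 a weight of 0.175, Stab1 was at 0.17, Cdh5 0.18, Pecam1 0.15, Esam 0.27, Egfl7 0.088, Des 0.015, Notch3 0.11, Lcn2 0.17, Ttr 0.010, Eif2s3x -0.0025 and Kdm6a 0.013. With single animals left out the difference ran from -0.10 to 0.72 for B2m, -0.017 to 0.39 for Fcgr3, -0.47 to 1.16 for Cd74, -0.66 to 0.50 for H2-Aa, -0.79 to 0.015 for Notch3, -0.071 to 0.62 for Ptpn11, -0.39 to 0.021 for Psmb9, -0.023 to 0.47 for Ctnnb1, -0.11 to 0.52 for Cldn2, -0.87 to 0.061 for Stab1, -0.80 to 0.051 for Cdh5, -0.56 to 0.31 for Pecam1, -0.78 to 0.013 for Esam, -0.012 to 0.24 for Uqcrc2, -0.54 to 0.18 for Lcn2, -0.55 to 0.083 for Eif2s3y, -0.16 to 0.60 for Eif2s3x, -0.53 to 0.21 for Kdm6a and -0.48 to 0.012 for Egfl7. The causes were not tested.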
